A study of Mus musculus with 10 samples.

Results

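Cells take up amino acids, and clear the amino acid and amine transmitters released around them, through a small number of transporter families. The genes described here are those of the *Slc1*, *Slc3*, *Slc6*, *Slc7*, *Slc36*, *Slc38* and *Slc43* families. They were chosen by name alone: every gene symbol in the deposited tables made of one of those family names, the letter a and a number. Of 19214 gene symbols, 57 were members, and 51 of these were listed in all 3 tables. Their levels were read in 10 RNA-seq libraries of mouse intestine, 1 library per condition, so that no value below has a replicate and no test between conditions was made.

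All mice were 4 weeks old and on a C57BL/6 background. Smooth muscle cells (SMCs) of jejunum and colon were sorted from smMHC Cre-eGFP/+ mice, a transgenic strain in which the promoter of smooth muscle myosin heavy chain (*Myh11*) drives Cre and eGFP. Interstitial cells of Cajal (ICC), the pacemaker cells of the gut wall, were sorted from Kit copGFP/+ mice, whose fluorescent protein is read from the *Kit* locus. The unsorted smooth muscle (SM) tissue of both organs is labelled with the same strain, although the methods of the study describe muscle of smMHC Cre-eGFP/+ mice. PDGFRα+ cells, a fibroblast-like interstitial cell type, were sorted from Pdgfra eGFP/+ mice, from jejunum, colon and colonic mucosa, and the unsorted colonic mucosa came from that strain too. The sorted SMCs of many mice were pooled into 1 library, so differences between animals are averaged within it. A reporter allele or transgene was present in every condition, including the unsorted ones, and wild-type tissue was not measured.

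Several of these transporters work as pairs or as exchangers. The heavy chain *Slc3a2* (CD98) carries light chains of the *Slc7* family to the plasma membrane, where LAT1 (*Slc7a5*) exchanges intracellular glutamine for leucine and other large neutral amino acids, and the sodium-coupled *Slc38* carriers together with ASCT2 (*Slc1a5*) supply that glutamine. Members of *Slc6* move transmitters (glycine, GABA, serotonin), osmolytes (taurine) and creatine with sodium and chloride. When amino acids run short, or the endoplasmic reticulum is under stress, the transcription factor ATF4 raises a set of genes that includes several of these carriers, in what is called the integrated stress response. ATF4 binds with a C/EBP partner to composite elements of the form TGATGNAA.

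Because *Slc7a5*, a known target of ATF4, was the member called higher in jejunal SMCs than in tissue, the starts of member genes were searched for that element on both strands. The windows were RefSeq promoters of build GRCm38.p6, from 250 bases before to 50 after the transcription start, and 40 of the 57 members had an entry. The letters TGATGNAA were in 1304 of 32851 promoters, or 3.97%, and in 4 of 60 promoters of members, which belong to 3 genes, *Slc7a11*, *Slc1a4* and *Slc7a7*. Counted by gene, the letters were in 1219 of 27025. Of the 9 members known as ATF4 targets, 6 had an entry and 2 of them held the letters. Among 14 other genes of the stress response with an entry, the letters stood in 6, *Atf3*, *Chac1*, *Trib3*, *Asns*, *Nupr1* and *Vldlr*. The stretches below show the match in capitals in 2 members and in 2 stress response genes that were at least 4-fold higher in jejunal SMCs. In *Slc7a11* the element stands 2 times, 66 and 47 bases before the start, in opposite directions. *Slc7a7*, which is not among the known ATF4 targets and is not printed, also holds it 2 times in the same window. Those matches begin 141 bases and 1 base before the start, in the same direction. The printed stretches lie at chr3:50443628-50443704 (*Slc7a11*, minus strand), chr11:20332685-20332742 (*Slc1a4*, minus strand), chr2:152344014-152344071 (*Trib3*, minus strand) and chr2:119351024-119351081 (*Chac1*, plus strand). The table had no entry for *Slc7a5*, *Slc7a3* and *Slc1a5*.
Slc7a11: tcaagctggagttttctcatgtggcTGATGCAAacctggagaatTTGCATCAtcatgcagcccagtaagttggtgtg
Slc1a4: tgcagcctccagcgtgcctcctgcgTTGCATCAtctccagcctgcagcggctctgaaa
Trib3: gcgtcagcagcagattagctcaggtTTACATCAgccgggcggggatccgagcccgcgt
Chac1: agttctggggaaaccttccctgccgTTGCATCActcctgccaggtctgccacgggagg

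Levels are FPKM, numbers of sequenced fragments scaled to transcript length and library size, summed over the variants of a gene, and FPKM of different genes can be compared because they are scaled to length. The files hold no counts, so the number of reads behind a value is unknown. Jejunum, colon and mucosa stand in separate tables, and levels set side by side across them carry that limit. Summed over 8 SMC markers, the levels were 37815 FPKM in jejunal SMCs and 58402 FPKM in colonic SMCs, against 21368 and 25699 FPKM in the SM tissues. *Kit* reached 468 FPKM in jejunal ICC and 792 FPKM in colonic ICC, and *Pdgfra* 230 FPKM in colonic PDGFRα+ cells and 228 FPKM in mucosal PDGFRα+ cells. The library labelled jejunal PDGFRα+ cells did not bear out its label. *Pdgfra* was at 34.0 FPKM there and at 57.0 FPKM in jejunal SM tissue, and *Myh11* stood at 1677 FPKM beside 3370 FPKM. Of the 6 PDGFRα+ cell markers 3 lay above tissue and 3 below, none by 4-fold, with *Gdf10* at 126 FPKM against 36.1 FPKM. The 10 neuron markers summed to 581 FPKM against 461 FPKM in the tissue, with 4 of them above tissue and 6 below. Of the same 6 markers, *Gdf10* alone was higher in colonic ICC (934 FPKM) than in the unsorted colonic muscle (66.5 FPKM). *Pdgfra* was slightly lower, with 42.2 FPKM in these ICC and 47.4 FPKM in that muscle. *P2ry1*, *Kcnn3*, *Cd34* and *Adamts5* were lower too. Jejunal SMCs and ICC held all 8 pancreatic acinar transcripts searched for at 1 FPKM or more. The mucosal PDGFRα+ library still held 2333 FPKM of 9 epithelial markers, against 9809 FPKM in the mucosa. In bulk RNA, fewer cells of a type and less RNA per cell cannot be told apart.

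The members ranged from barely detected to abundant in all conditions. Of the 57, 14 stayed under 1 FPKM in every library that listed them, 17 reached 1 but not 10 FPKM, and 26 reached 10 FPKM in at least 1 library. Those at 10 FPKM or more in all 10 libraries were 5: *Slc3a2*, *Slc6a6*, *Slc6a8*, *Slc38a2* and *Slc38a10*. The members made up between 0.0887% of all FPKM, in the library labelled jejunal PDGFRα+ cells, and 0.189%, in colonic mucosa, and the 5 highest held 43.4% to 67.1% of that sum. *Slc38a2*, the amino acid carrier SNAT2, was first or second among members in all 8 libraries of the muscle layer and stood behind 3 others in both mucosal libraries.

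**Figure D1:**
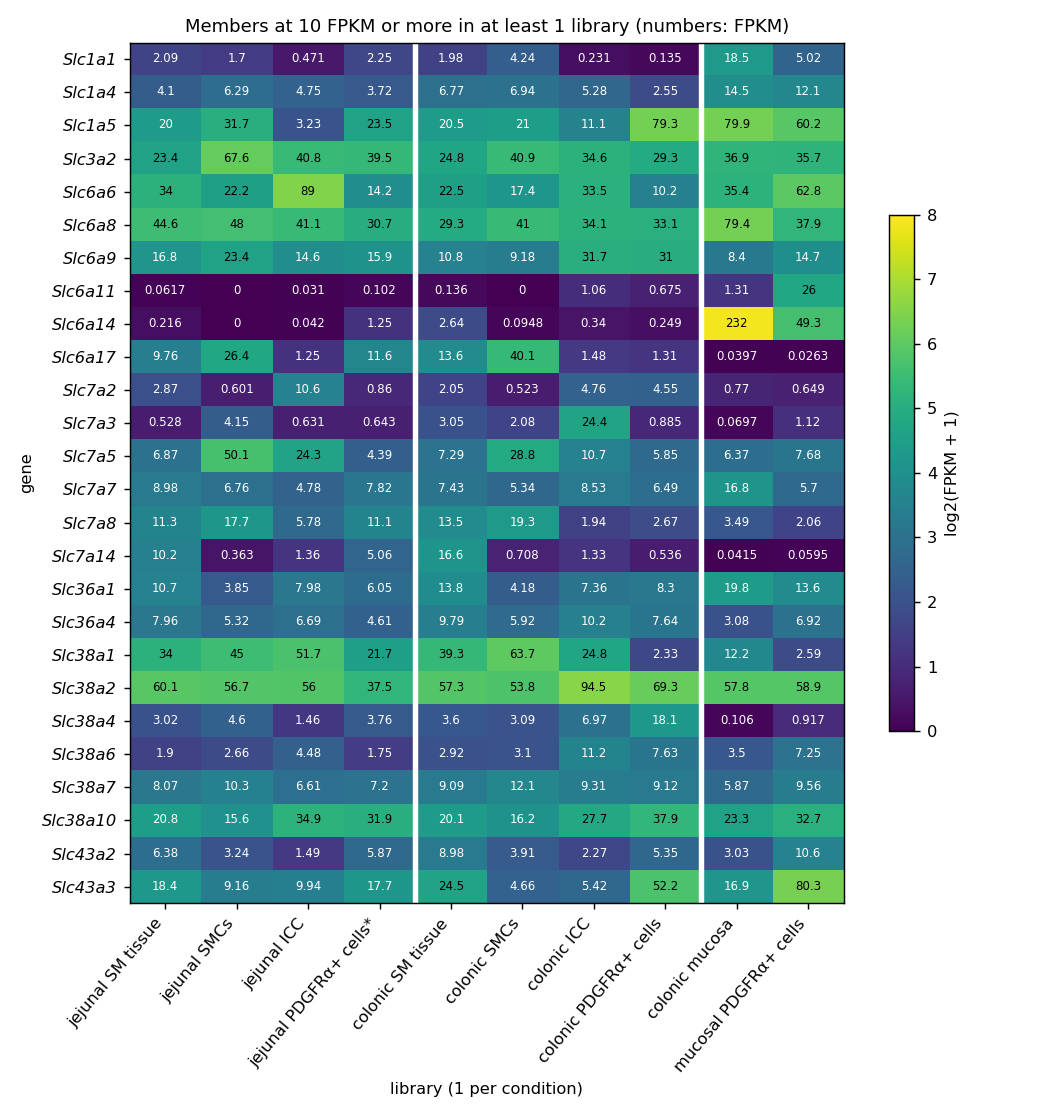
Levels of the 26 members at 10 FPKM or more in at least 1 library, with FPKM printed in each cell and colour giving log2(FPKM + 1). Rows are genes in family order, columns are the 10 libraries, and white lines part the 3 tables. The asterisk marks the library whose markers did not bear out its label. *Slc38a2* lies between 37.5 and 94.5 FPKM in every column, whereas *Slc6a14* reaches 232 FPKM in colonic mucosa alone.

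Comparisons were made within a table as the log2 ratio of FPKM + 1, and a gene at 1 FPKM or more in either library was called when that ratio passed 4-fold. Sorted cells were set against the unsorted tissue they came from, and ICC against SMCs; comparisons with a tissue share that tissue library. In jejunal SMCs against jejunal SM tissue, 1 of 31 members was higher, *Slc7a5*, where 0.297% of all genes were, and 1 was lower, *Slc7a14*, where 3.48% were. In colonic SMCs against colonic SM tissue 0 of 32 were higher, with 0.149% of all genes, and 3 were lower, *Slc7a14*, *Slc6a15* and *Slc43a3*, with 5.3%. With median of ratios scaling the colonic split was 1 higher and 2 lower, and *Slc43a3* was no longer called. In terms of direction alone, 17 of the 31 jejunal and 12 of the 32 colonic members lay above 0, and the median log2 ratio of members was 0.10 in jejunum and -0.25 in colon, beside -0.15 and -0.32 over all genes.

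In ICC 3 or 4 members were called in each comparison. Jejunal ICC against jejunal SM tissue gave 0 of 29 members higher (1.62% of all genes) and 3 lower (2.72%), which were *Slc1a5*, *Slc6a17* and *Slc7a14*. Against jejunal SMCs 1 of 30 was higher, *Slc7a2* (3.59% of all genes), and 2 were lower, *Slc6a17* and *Slc1a5* (2.42%). In colon, 1 of 34 members was higher in ICC than in SM tissue, *Slc7a3* (1.43% of all genes), and 3 were lower, *Slc7a14*, *Slc6a17* and *Slc7a8* (4.4%). Against colonic SMCs 1 of 32 was higher, again *Slc7a3* (4.5%), and 3 were lower, *Slc6a17*, *Slc7a8* and *Slc1a1* (2.57%). With levels scaled to TPM, the split in colonic ICC became 1 higher and 7 lower against tissue, and 4 higher and 3 lower against SMCs. The share of all genes was not computed with that scaling.

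PDGFRα+ cells of the colonic muscle differed from their tissue in 5 of 33 members. *Slc38a4* was higher, where 2.08% of all genes were, and *Slc38a1*, *Slc7a14*, *Slc6a17* and *Slc6a15* were lower, where 6.18% were; median of ratios scaling gave 2 higher and 4 lower. In the library labelled jejunal PDGFRα+ cells, where none of the 8 SMC, 10 neuron and 6 PDGFRα+ cell markers was 4-fold from tissue and 5 of 9 epithelial markers were 4-fold higher, 0 of 33 members were higher (0.913% of all genes) and 0 were lower (0.14%). In mucosal PDGFRα+ cells against colonic mucosa 2 of 34 were higher, *Slc6a11* and *Slc43a3* (5.5% of all genes), and *Slc6a14* was lower (1.64%). With 2 to 5 members called in each of the other 8 comparisons, the shares of members and of all genes rest on single genes.

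**Figure D2:**
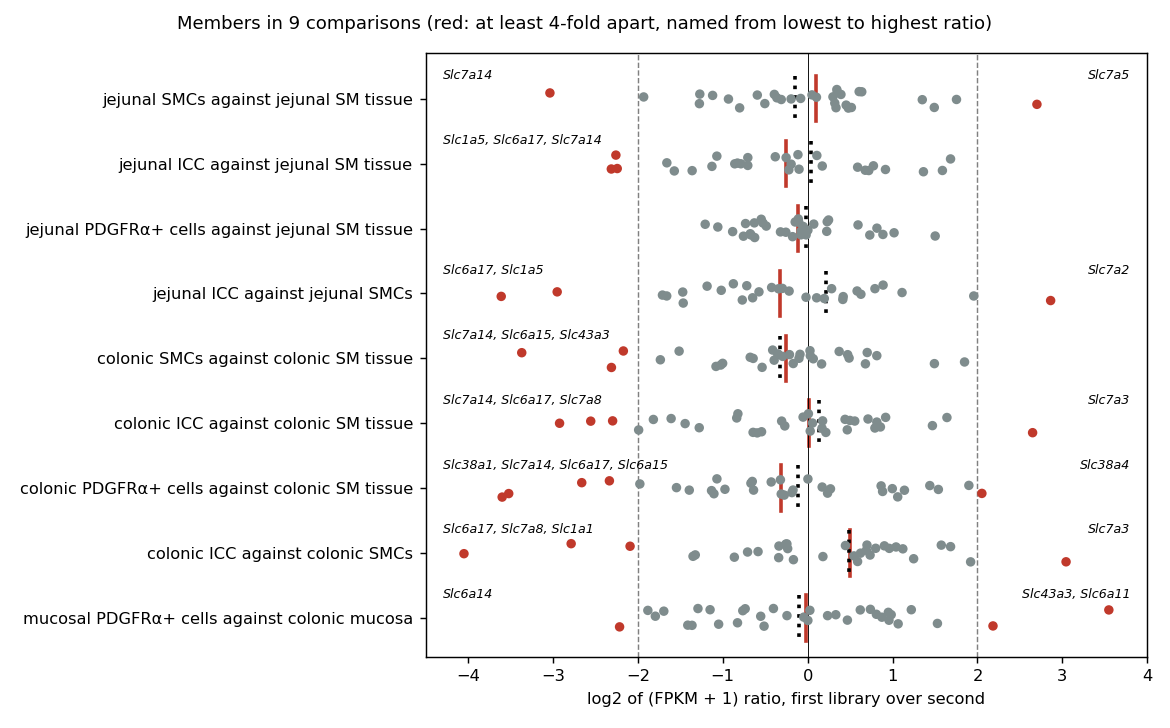
Log2 ratio of FPKM + 1 for every member at 1 FPKM or more in either library, in the 9 comparisons (rows). Each point is 1 member, red points and names mark those at least 4-fold apart, dashed lines stand at 4-fold, the red bar is the median of the members and the dotted bar that of all genes; called members lie from -4.05 to 3.55.

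The LAT1 light chain and its heavy chain were higher in sorted SMCs than in unsorted tissue. *Slc7a5*, the LAT1 light chain, was at 6.87 FPKM in jejunal SM tissue, 50.1 FPKM in jejunal SMCs, 24.3 FPKM in jejunal ICC and 4.39 FPKM in the library labelled jejunal PDGFRα+ cells. In colon its levels were 7.29 FPKM in SM tissue, 28.8 FPKM in SMCs, 10.7 FPKM in ICC and 5.85 FPKM in PDGFRα+ cells, and in mucosa 6.37 FPKM, with 7.68 FPKM in mucosal PDGFRα+ cells. Both SMC libraries were thus the highest of their organ, with ICC next. The log2 ratio over tissue was 2.70 in jejunal SMCs, 1.85 in colonic SMCs, 1.68 in jejunal ICC and 0.50 in colonic ICC, and the first of these passed 4-fold. *Slc3a2*, its heavy chain, was likewise highest in SMCs and next in ICC, in jejunum at 67.6 FPKM in SMCs, 40.8 FPKM in ICC, 39.5 FPKM in the library labelled PDGFRα+ and 23.4 FPKM in tissue. In colon it was at 40.9 FPKM in SMCs, 34.6 FPKM in ICC, 29.3 FPKM in PDGFRα+ cells and 24.8 FPKM in tissue, so the lowest level of both organs was that of unsorted tissue.

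*Slc7a8* (LAT2), the other large neutral amino acid exchanger that pairs with *Slc3a2*, separated SMCs from interstitial cells. The SMC libraries held 17.7 FPKM (jejunum) and 19.3 FPKM (colon). It was at 11.3 and 13.5 FPKM in the SM tissues, and at 5.78 and 1.94 FPKM in jejunal and colonic ICC. Colonic PDGFRα+ cells had 2.67 FPKM. The log2 ratio of colonic ICC to colonic SMCs was -2.79, and in jejunum it was -1.47. The 2 LAT light chains therefore ran together in SMCs and apart in ICC of both organs, where *Slc7a5* was higher and *Slc7a8* lower than in tissue. In colonic ICC their log2 ratios over tissue were 0.50 and -2.30. *Slc7a7* (y+LAT1), which exports cationic amino acids, ranged from 4.78 to 8.98 FPKM over the muscle layer and was highest in mucosa, at 16.8 FPKM. Of the remaining light chains none reached 10 FPKM. The second heavy chain *Slc3a1*, which carries the cystine transporter of kidney and gut epithelium, was at 7.97 FPKM in mucosa and at 1.59 FPKM or less in every other library; its assembled locus is shared with *Ppm1b*.

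The members known as ATF4 targets were read as a group, and beside them the other genes of the integrated stress response. In jejunal SMCs 7 of the 8 tested ATF4 members lay above tissue, 1 of them by 4-fold where 0.297% of all genes were, with a median log2 ratio of 0.58 beside -0.15 over all genes. In colonic SMCs 5 of 8 lay above tissue, 0 by 4-fold where 0.149% of all genes were, with a median of 0.03 beside -0.32. The group did not move as one: *Slc7a5* had the highest log2 ratio in both organs, *Slc3a2* lay at 1.49 in jejunum and 0.70 in colon, *Slc7a3*, a cationic amino acid carrier, at 1.75 and -0.39, and *Slc38a2* lay at -0.08 and -0.09. *Slc7a11* (xCT), the cystine carrier whose start holds the element 2 times, stayed between 0.0678 and 0.849 FPKM in all 10 libraries and was not tested.

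Most of the other stress response genes had a higher level in SMCs than in tissue. In jejunum 15 of 15 lay above tissue and 4 passed 4-fold (0.297% of all genes), with a median log2 ratio of 1.45 beside -0.15 over all genes. In colon 13 of 15 lay above tissue, 1 by 4-fold (0.149%), with a median of 0.83 beside -0.32. The log2 ratios ran from 0.44 to 4.34 in jejunum and from -0.63 to 2.18 in colon. *Trib3*, a pseudokinase that ATF4 induces, was at 0.283 FPKM in jejunal SM tissue and 24.9 FPKM in jejunal SMCs, and at 0.643 and 6.42 FPKM in the colonic pair. *Chac1*, which degrades glutathione, was at 0.914 and 11.6 FPKM in the jejunal pair and at 0.911 and 6.35 FPKM in the colonic one. *Mthfd2*, a mitochondrial folate enzyme, rose from 2.49 FPKM in jejunal tissue to 29.4 FPKM in jejunal SMCs, and stood at 2.66 and 10.4 FPKM in their colonic counterparts. In ICC *Trib3* was at 0.302 FPKM (jejunum) and 0.249 FPKM (colon), and *Chac1* at 0.265 and 0.187 FPKM. Genes of tissue dissociation moved in the same libraries: the 8 of that list summed to 917 FPKM in jejunal SMCs and 469 FPKM in colonic SMCs, beside 291 and 124 FPKM in the tissues, and all 8 lay above tissue in both organs. In colonic ICC 6 of those 8 lay above tissue, 5 of them by 4-fold (1.43% of all genes). In colonic PDGFRα+ cells 7 of the 8 did, 4 of them by 4-fold (2.08%). Of the stress response genes tested, 7 of 13 lay above tissue in colonic ICC and 8 of 14 in colonic PDGFRα+ cells. A link between the 2 lists was not tested. *Atf3* belongs to the dissociation list and to the stress response list. Sorted cells were dispersed and tissue was not, so cell type and handling cannot be told apart here.

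**Figure D3:**
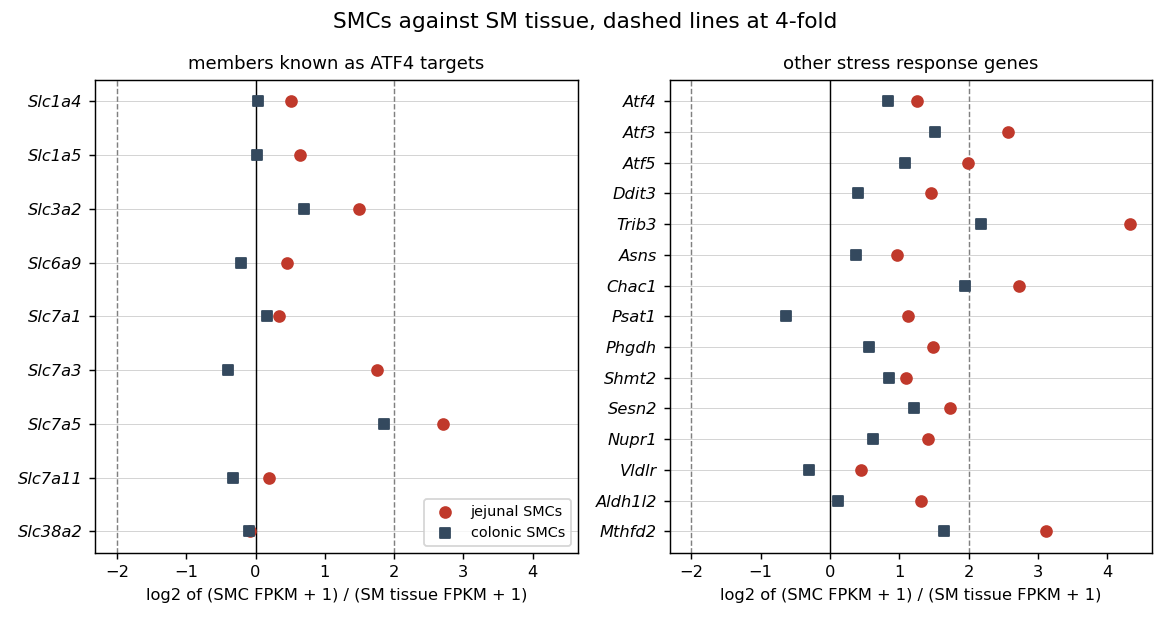
Log2 ratio of FPKM + 1, SMCs over SM tissue, for the 9 members known as ATF4 targets (left) and 15 other stress response genes (right), with circles for jejunum and squares for colon. Each point is 1 pair of libraries and dashed lines stand at 4-fold; *Slc7a5* and *Trib3* have the highest ratio of their panel in both organs.

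The cationic amino acid carriers split by cell type and organ. *Slc7a3* (CAT3) was at 24.4 FPKM in colonic ICC, against 3.05 FPKM in colonic SM tissue, 2.08 FPKM in colonic SMCs and 0.885 FPKM in colonic PDGFRα+ cells. In jejunum SMCs were highest at 4.15 FPKM, and ICC stood at 0.631 FPKM, close to the 0.528 FPKM of tissue. Its log2 ratio in colonic ICC was 2.65 over tissue and 3.04 over SMCs. *Slc7a2* (CAT2) supplies arginine for nitric oxide synthesis in several cell types. Among jejunal libraries it was highest in ICC, at 10.6 FPKM, with 2.87 FPKM in tissue, 0.601 FPKM in SMCs and 0.860 FPKM in the library labelled PDGFRα+. Its log2 ratio in jejunal ICC was 2.86 over SMCs and 1.59 over tissue, and only the first passed 4-fold. In colon it was at 4.76 FPKM in ICC and 4.55 FPKM in PDGFRα+ cells, above the 2.05 FPKM of tissue and the 0.523 FPKM of SMCs. SMCs had the lowest *Slc7a2* of both organs. *Slc7a1* (CAT1), the general carrier of arginine and lysine, was highest in SMCs, at 6.69 FPKM in the jejunal and 6.88 FPKM in the colonic library. The lead over tissue was small, with 5.06 and 6.03 FPKM in the tissues. ICC held 1.77 and 3.83 FPKM, the library labelled jejunal PDGFRα+ cells 2.59 FPKM and colonic PDGFRα+ cells 2.58 FPKM.

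*Slc7a14*, a lysosomal relative of these carriers found mainly in neurons, and *Slc6a15*, a neuronal carrier of branched-chain amino acids and proline, belonged to unsorted muscle. *Slc7a14* was at 10.2 FPKM in jejunal SM tissue and 0.363 FPKM in jejunal SMCs, 1.36 FPKM in jejunal ICC and 5.06 FPKM in the library labelled jejunal PDGFRα+ cells. In colon it was at 16.6 FPKM in tissue, 0.708 FPKM in SMCs, 1.33 FPKM in ICC and 0.536 FPKM in PDGFRα+ cells, and both mucosal libraries were under 0.1 FPKM. *Slc6a15* followed, from 4.42 FPKM in jejunal and 5.78 FPKM in colonic tissue to between 0.344 and 0.924 FPKM in the SMCs, the ICC and the colonic PDGFRα+ cells. The 10 neuron markers summed to 461 and 674 FPKM in the tissues, and to between 31.0 and 99.0 FPKM in those 5 sorted libraries, with no marker at 0. Neuronal carriers outside these families moved likewise: *Slc18a3*, which loads acetylcholine into vesicles, was at 10.6 and 15.2 FPKM in the tissues and 1.00 and 1.501 FPKM in SMCs, and *Slc5a7*, the choline carrier, at 12.2 and 12.9 FPKM and at 0.581 and 0.605 FPKM. Of the listed vesicular and choline carriers that were tested, 3 of 3 in jejunum and 3 of 4 in colon were at least 4-fold lower in SMCs. Over all genes the shares were 3.48% and 5.3%. The library labelled jejunal PDGFRα+ cells differed. Its neuron markers summed to 581 FPKM, above jejunal tissue, with 4 of the 10 markers above tissue and 6 below. *Slc7a14* (5.06 FPKM) and *Slc6a15* (2.52 FPKM) lay below jejunal tissue there.

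*Slc6a17* (NTT4), described as a vesicular carrier of neutral amino acids in neurons of the brain, had a different distribution. It was at 9.76 FPKM in jejunal SM tissue and 26.4 FPKM in jejunal SMCs, and at 13.6 FPKM in colonic SM tissue and 40.1 FPKM in colonic SMCs. ICC of both organs held 1.25 and 1.48 FPKM, colonic PDGFRα+ cells 1.31 FPKM, and the mucosal libraries under 0.05 FPKM. SMCs were thus the highest library of each organ, while the neuron markers summed to 31.0 FPKM in jejunal and 47.8 FPKM in colonic SMCs, the lowest of each muscle layer. Over tissue, SMCs had a log2 ratio of 1.35 for the jejunal and 1.49 for the colonic pair, and ICC over SMCs one of -3.61 and -4.05, the lowest of all members in those comparisons. In the library labelled jejunal PDGFRα+ cells *Slc6a17* was at 11.6 FPKM, beside an SMC marker sum of 19564 FPKM. Most of the signal came from 1 assembled variant of 6444 bases that shares a junction with the known transcript. That variant held 66.7% of the gene in jejunal SMCs, 58.1% in colonic SMCs, 61.9% in jejunal and 63.5% in colonic tissue, so the same form led in sorted cells and in tissue.

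**Figure D4:**
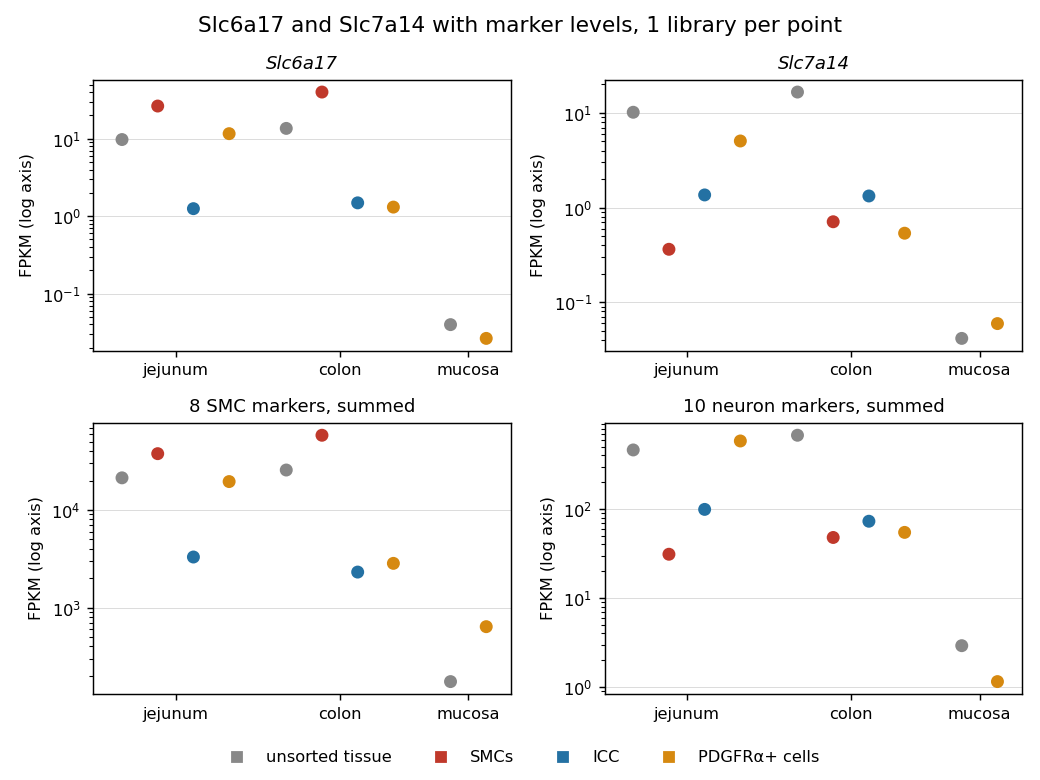
FPKM of *Slc6a17* and *Slc7a14* and the summed FPKM of 8 SMC and 10 neuron markers, on log axes, 1 point per library, grouped as jejunum, colon and mucosa. *Slc6a17* is highest in SMCs (26.4 and 40.1 FPKM) where the neuron markers are lowest within each muscle layer, whereas *Slc7a14* is highest in unsorted tissue (10.2 and 16.6 FPKM) where the neuron markers are high. The highest neuron sum of jejunum, 581 FPKM, is that of the library labelled PDGFRα+ cells.

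*Slc6a14*, a concentrative carrier of neutral and cationic amino acids in colonic epithelium, was the most abundant member of any library. It was at 232 FPKM in colonic mucosa, 49.3 FPKM in mucosal PDGFRα+ cells, 2.64 FPKM in colonic SM tissue and 1.25 FPKM in the library labelled jejunal PDGFRα+ cells. All other libraries were at 0.340 FPKM or less, and jejunal SMCs were at 0. The summed level of 9 epithelial markers, of which *Car1* was at 0 in jejunal SM tissue, was likewise highest in mucosa, at 9809 FPKM, and next in mucosal PDGFRα+ cells, at 2333 FPKM. It was 141 FPKM in the library labelled jejunal PDGFRα+ cells, 90.5 FPKM in colonic SM tissue and between 6.92 and 31.8 FPKM in the rest.

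Among the transmitter carriers of the *Slc6* family, *Slc6a9* was the one above 2 FPKM in the muscle layer. This gene encodes GlyT1, which takes up glycine with sodium and chloride, and was at 16.8 FPKM in jejunal SM tissue, 23.4 FPKM in jejunal SMCs, 14.6 FPKM in jejunal ICC and 15.9 FPKM in the library labelled jejunal PDGFRα+ cells. In colon it stood at 10.8 FPKM in tissue, 9.18 FPKM in SMCs, 31.7 FPKM in ICC and 31.0 FPKM in PDGFRα+ cells. SMCs were thus the highest library in jejunum and the lowest of the colonic muscle layer. Colonic mucosa was lower still, at 8.40 FPKM. *Slc6a4*, the serotonin carrier, was at 6.42 FPKM in mucosa, 1.89 FPKM in mucosal PDGFRα+ cells and 0.574 FPKM or less in the muscle layer. The noradrenaline carrier *Slc6a2*, the dopamine carrier *Slc6a3*, and *Slc6a12* and *Slc6a13*, which carry betaine and GABA, stayed under 1 FPKM in every library that listed them; *Slc6a3* was not listed in the mucosal table.

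*Slc6a11* (GAT3), a GABA carrier known from astrocytes, marked the PDGFRα+ cells of the mucosa. It was at 26.0 FPKM there and at 1.31 FPKM in colonic mucosa, with a log2 ratio of 3.55, the highest of any member in any comparison. In the muscle layer colonic ICC had 1.06 FPKM and colonic PDGFRα+ cells 0.675 FPKM, and the remaining 6 libraries were at 0.136 FPKM or less. The known transcript of 4066 bases held 57.4% of the gene in mucosal PDGFRα+ cells. *Pdgfra* itself stood at 11.0 FPKM in mucosa and 228 FPKM in the sorted cells. The enzymes that make GABA, *Gad1* and *Gad2*, were at 0.925 FPKM or less in all libraries.

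The taurine carrier *Slc6a6* and the creatine carrier *Slc6a8* were expressed everywhere. *Slc6a6* was at 89.0 FPKM in jejunal ICC, the highest member of that library, against 34.0 FPKM in jejunal SM tissue, 22.2 FPKM in SMCs and 14.2 FPKM in the library labelled PDGFRα+. In colon the order was the same, with 33.5 FPKM in ICC, 22.5 FPKM in tissue, 17.4 FPKM in SMCs and 10.2 FPKM in PDGFRα+ cells. Mucosal PDGFRα+ cells, by contrast, had 62.8 FPKM, above the 35.4 FPKM of mucosa. The gene was read mainly as 2 long variants of 6169 and 6177 bases and a shorter one of 4596 bases. The shorter one held 31.2% of the gene in jejunal ICC, 32.2% in colonic ICC and 29.8% in colonic SMCs. In colonic PDGFRα+ cells it was the leading form, at 36.2%. The 6169-base known transcript held 65.5% of the gene in jejunal tissue and 55.1% in colonic tissue but 6.85% and 1.56% in the ICC, where the 6177-base variant held 59.5% and 64.6%. In SMCs the 2 organs differed, with the 6177-base variant at 54.4% in jejunum and 1.84% in colon. The 2 long variants differ in length by 8 bases, and no interval is given for the level of any variant.

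*Slc6a8* varied less, from 29.3 FPKM in colonic SM tissue to 48.0 FPKM in jejunal SMCs over the muscle layer, and was at 79.4 FPKM in mucosa. Creatine is phosphorylated by creatine kinases, and *Ckb*, their brain-type form, reached 1695 FPKM in the jejunal and 1498 FPKM in the colonic SMC library, against 925 and 622 FPKM in the tissues, and 343 and 159 FPKM in ICC. *Gatm*, the first enzyme of creatine synthesis, was at 0.518 and 0.412 FPKM in SMCs and at 8.14 and 11.0 FPKM in the tissues. Within the muscle layer of each organ the carrier and *Ckb* were highest in SMCs as FPKM, and *Gatm* was lowest there. Colonic PDGFRα+ cells also had only 0.799 FPKM of *Gatm*. The other creatine enzymes did not share 1 pattern. *Ckm* was highest in SMCs too, at 232 and 268 FPKM. *Ckmt1*, another creatine kinase, was lowest in SMCs, at 1.23 and 0.741 FPKM, against 9.51 and 15.6 FPKM in the tissues. *Gamt*, also of creatine synthesis, was at 7.44 and 7.70 FPKM in SMCs, and at 6.93 and 7.13 FPKM in the tissues. The lead of the carrier was small, with a log2 ratio of 0.10 in jejunal SMCs over tissue and -0.26 in colonic ICC over SMCs. TPM scaling shifted the median of all genes by -0.15 and 0.28 in those comparisons, so a lead of that size depends on the scaling.

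In the *Slc1* family the glutamine exchanger *Slc1a5* was the highest member in 9 of the 10 libraries, the exception being jejunal ICC, where *Slc1a4* stood above it at 4.75 FPKM. *Slc1a5* was at 20.0 FPKM in jejunal SM tissue, 31.7 FPKM in jejunal SMCs, 3.23 FPKM in jejunal ICC and 23.5 FPKM in the library labelled jejunal PDGFRα+ cells. In colon it was at 20.5 FPKM in tissue, 21.0 FPKM in SMCs, 11.1 FPKM in ICC and 79.3 FPKM in PDGFRα+ cells, and in mucosa at 79.9 FPKM, with 60.2 FPKM in mucosal PDGFRα+ cells. ICC were the lowest of both organs, more than 4-fold below tissue in jejunum with a log2 ratio of -2.31. In colonic PDGFRα+ cells the log2 ratio over tissue was 1.90, just short of 4-fold. *Slc1a4* (ASCT1), which exchanges serine, alanine and cysteine, ranged from 2.55 to 6.94 FPKM over the muscle layer and was at 14.5 FPKM in mucosa. *Slc1a1*, a glutamate carrier of epithelium and neurons, was at 18.5 FPKM in mucosa and 5.02 FPKM in mucosal PDGFRα+ cells. In the muscle layer colonic SMCs held the most *Slc1a1*, at 4.24 FPKM, against 0.231 FPKM in colonic ICC and 0.135 FPKM in colonic PDGFRα+ cells. The other glutamate carriers stayed at 1.54 FPKM or less in all libraries.

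The sodium-coupled *Slc38* carriers held the largest share of transporter message in muscle. *Slc38a2* (SNAT2) ranged from 37.5 FPKM, in the library labelled jejunal PDGFRα+ cells, to 94.5 FPKM, in colonic ICC, and the other 8 libraries lay between 53.8 and 69.3 FPKM. *Slc38a1* (SNAT1), the glutamine carrier of neurons, was by contrast selective. It was at 34.0 FPKM in jejunal SM tissue, 45.0 FPKM in SMCs, 51.7 FPKM in ICC and 21.7 FPKM in the library labelled PDGFRα+, and in colon at 39.3 FPKM in tissue, 63.7 FPKM in SMCs and 24.8 FPKM in ICC. In colonic PDGFRα+ cells it was at 2.33 FPKM, and in mucosal PDGFRα+ cells at 2.59 FPKM beside 12.2 FPKM in mucosa. Both PDGFRα+ libraries with high *Pdgfra* were thus the lowest of the series, with a log2 ratio to their tissue of -3.60 in the muscle layer and -1.88 in mucosa.

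*Slc38a4* (SNAT4), a carrier best known from liver and placenta, showed the opposite in colonic muscle. It was at 18.1 FPKM in colonic PDGFRα+ cells, 6.97 FPKM in colonic ICC, 3.60 FPKM in colonic tissue and 3.09 FPKM in colonic SMCs. The jejunal libraries lay between 1.46 and 4.60 FPKM, and the mucosal ones under 1 FPKM, sorted cells included. *Slc38a6* was highest in colonic ICC at 11.2 FPKM and lay between 1.75 and 7.63 FPKM elsewhere; it shares an assembled locus with *Mnat1*. *Slc38a10* ran from 15.6 FPKM in jejunal SMCs to 37.9 FPKM in colonic PDGFRα+ cells, lower in SMCs than in ICC of both organs. *Slc38a7*, a lysosomal glutamine exporter, moved little, from 5.87 to 12.1 FPKM.

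The proton-coupled carrier *Slc36a1* (PAT1), of lysosomes and brush border, was lower in SMCs than in tissue. It was at 3.85 FPKM in jejunal SMCs, where tissue had 10.7 FPKM, and at 4.18 FPKM in colonic SMCs, where tissue had 13.8 FPKM, and it was highest in mucosa at 19.8 FPKM. *Slc36a4* stayed between 3.08 and 10.2 FPKM, and the other 2 members of that family under 1 FPKM where listed.

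Of the *Slc43* uniporters, *Slc43a3* was highest in PDGFRα+ cells of the colonic muscle and mucosa. *Slc43a3*, a carrier of purine nucleobases rather than amino acids, was at 80.3 FPKM in mucosal PDGFRα+ cells, where it was the highest member, against 16.9 FPKM in mucosa. In colon it was at 52.2 FPKM in PDGFRα+ cells, 24.5 FPKM in tissue, 5.42 FPKM in ICC and 4.66 FPKM in SMCs, and in jejunum at 18.4 FPKM in tissue, 17.7 FPKM in the library labelled PDGFRα+, 9.94 FPKM in ICC and 9.16 FPKM in SMCs. In both organs SMCs were the lowest library. The log2 ratio to tissue was 2.18 in mucosa, 1.06 in colonic PDGFRα+ cells and -2.17 in colonic SMCs, where it was -1.77 with median of ratios scaling and so no longer past 4-fold. Its main transcript of 2591 bases was the leading one in all 10 libraries. *Slc43a2* (LAT4), which lets large neutral amino acids leave the cell, was highest in mucosal PDGFRα+ cells too, at 10.6 FPKM, with 3.03 FPKM in mucosa. In colonic muscle it was lower in PDGFRα+ cells, at 5.35 FPKM, than in tissue, at 8.98 FPKM, and the ICC libraries of jejunum and colon held 1.49 and 2.27 FPKM.

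**Figure D5:**
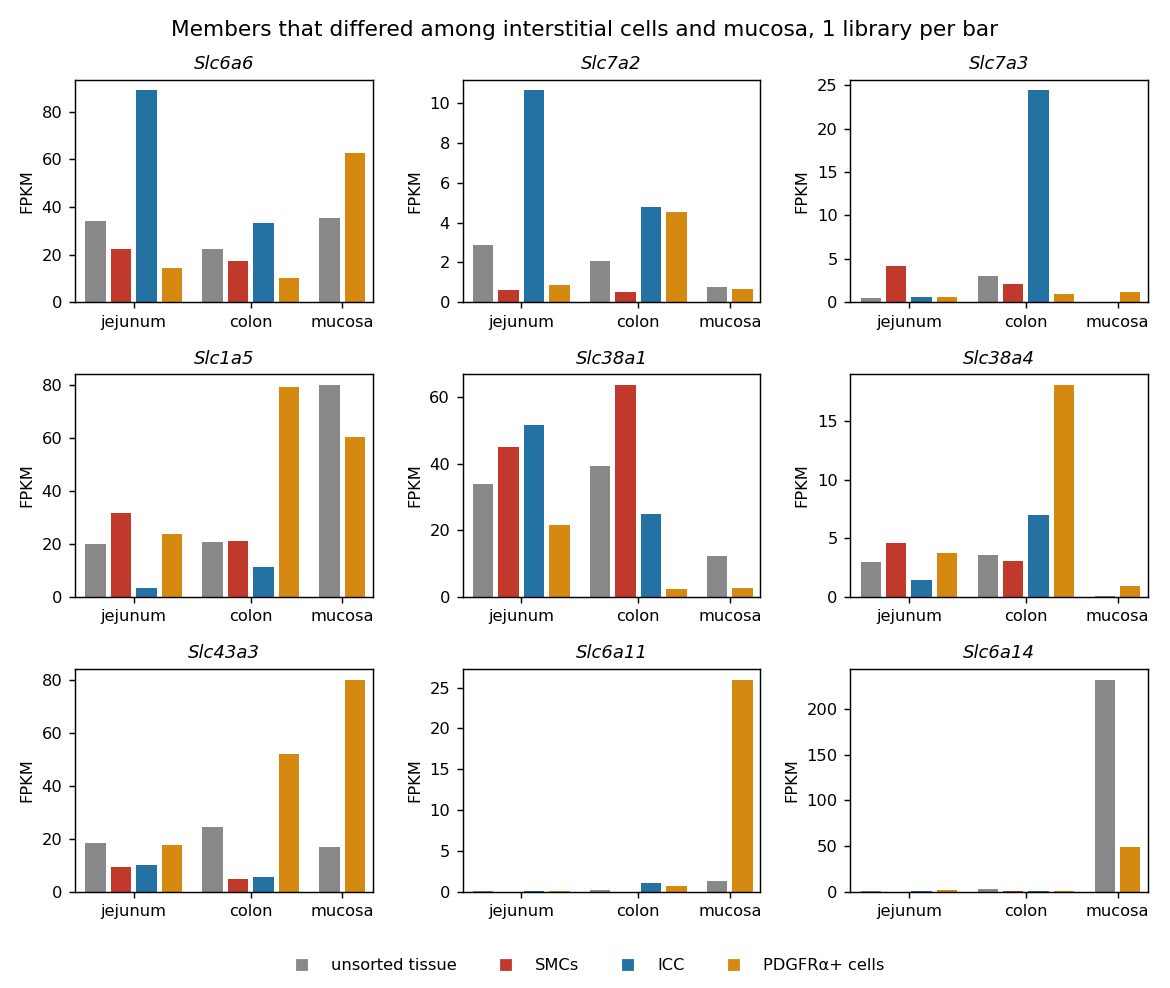
FPKM of 9 members by library, as bars from 0 with 1 library per bar, grouped as jejunum, colon and mucosa and coloured by cell type. *Slc6a6* is highest in ICC of both muscle layers, and *Slc7a3* reaches 24.4 FPKM in colonic ICC alone. Of the colonic muscle layer, PDGFRα+ cells hold the highest *Slc1a5* (79.3 FPKM), *Slc38a4* (18.1 FPKM) and *Slc43a3* (52.2 FPKM), and the lowest *Slc38a1* (2.33 FPKM). *Slc6a11* stands at 26.0 FPKM in mucosal PDGFRα+ cells. The jejunal PDGFRα+ bar is the library whose markers did not bear out its label.

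Members above 0 had on average between 3.23 and 3.96 transcript variants in a library, and 9 to 17 of them had 1 variant alone. Known transcripts held from 48.8% of the members' FPKM, in jejunal ICC, to 67.4%, in jejunal SM tissue. *Slc6a9*, *Slc7a7* and *Slc38a4* were read as 1 variant in all 10 libraries. Of the members with at least 2 variants in every library, *Slc1a5*, *Slc36a1*, *Slc38a2* and *Slc43a3* were led by the same variant in all 10. Genes whose leading variant changed most were *Slc1a1*, with 5 different ones over the 10 libraries, and *Slc7a3*, with 4. In colonic ICC, where *Slc7a3* was high, its leading variant of 2179 bases held 23.2% of the gene, so that level is spread over several assembled forms. For *Slc7a5* the known transcript of 3513 bases held 68.8% in jejunal SMCs and 67.7% in jejunal tissue, and the difference in level was not accompanied by a change of form.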

How the data were processed

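The series holds 10 mouse RNA-seq libraries, 1 per condition. Per the labels and the methods of the study, the authors mapped reads onto mm9 with TopHat 1.4.1, then built transcripts and their levels with Cufflinks 2.0.2, with Cuffdiff also named in the processing notes. They deposited FPKM for each transcript variant in 3 tables of 70143, 68502 and 59061 variants, with other columns for transcript length, class code and locus. The tables used here hold no counts and no confidence intervals. The study states read totals for the SMC and SM tissue libraries as a range and not per library, so they were not used.

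Variants under 0.025 FPKM, the cutoff of the study, were set to 0 and variants were summed per gene symbol. Log2 ratios were taken of FPKM + 1 for genes reaching 1 FPKM in either library compared, and called at 4-fold. Because the scale is log2(FPKM + 1), differences of low genes are understated. With 1 library per condition no p-value, SD or standard error was computed. Members named were those at 10 FPKM or more in a library or called in a comparison; other names, such as *Slc7a11*, *Slc7a1*, *Slc6a4* and *Slc3a1*, were chosen after their values were seen or from a list. The members, roles, ATF4, stress response and marker lists were written from general knowledge, with earlier results of these data known. Promoters came from RefSeq (GRCm38.p6), and their coordinates were not mixed with those of mm9. The values of a further member are not reported here. Calls were tested on simulated data. Alternatives were no cutoff or 0.1 FPKM, a pseudocount of 0.1 FPKM, TPM or median of ratios scaling, and no filter or 10 FPKM. Scripts ran in Python 3.11.15 with pandas 2.3.3, numpy 2.4.6 and, for plots, matplotlib 3.10.9.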

Additional observations from a re-analysis of the deposited data

How the results depend on the processing

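Of the 27 log2 ratios of members that passed 4-fold, 134 of 135 values under another cutoff, pseudocount or scaling stayed past 4-fold in the same direction and 0 reversed. The exception was *Slc43a3* in colonic SMCs, at -1.77 with median of ratios scaling. Counts were less stable than single ratios: 49 of 63 counts stayed within 1.5 times of the value given. Shares of all genes were computed for the main setting alone. Counts under an alternative, here and above, therefore have no such share beside them and cannot be read as a trait of the members. With a pseudocount of 0.1 FPKM the number of members apart rose from 2 to 5 in jejunal SMCs, 3 to 6 in jejunal ICC, 0 to 3 in the library labelled jejunal PDGFRα+ cells and 3 to 5 in jejunal ICC against SMCs. In colon it rose from 4 to 9 in ICC, 5 to 8 in PDGFRα+ cells and 4 to 7 in ICC against SMCs, and in mucosal PDGFRα+ cells from 3 to 10. TPM scaling multiplies all levels, so more members can be tested and the pseudocount shrinks their ratios less. With TPM scaling the numbers were 4 in jejunal SMCs, 1 in the library labelled jejunal PDGFRα+ cells and 5 in jejunal ICC against SMCs. In colon they were 8 in ICC, 8 in PDGFRα+ cells and 7 in ICC against SMCs. The split of higher to lower calls moved with TPM scaling from 1 and 3 to 1 and 7 in colonic ICC against tissue, and from 1 and 3 to 4 and 3 against SMCs. With median of ratios scaling it moved from 0 and 3 to 1 and 2 in colonic SMCs, and from 1 and 4 to 2 and 4 in colonic PDGFRα+ cells. These scalings shifted the median log2 ratio of all genes by -0.48 to 0.39, and ratios smaller than that depend on the scaling. No paired analysis was possible because the labels give no replicate numbers and each cell type of an organ has 1 library; a fit over both organs with organ as a block was not run. No condition has a further library to remain when 1 is left out, and depth limits cannot be given without counts.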
